A study of Homo sapiens with 4 samples.

Results

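The 48 genes described here act in mitosis and in the S and G2 phases that precede it, and were taken by name from a list that includes AURKB, PBK and TPX2, which the study assayed as TRIM24 targets. They are 48 of 20162 protein-coding genes of the GENCODE release 44 annotation on GRCh37, and every listed name matched a gene. ChIP-seq sites of TRIM24 and TRIM28 in LNCaP cells, an androgen-responsive prostate cancer cell line labelled wild type, were assigned to these genes. There were 4 samples, 1 per condition. HA-TRIM24 (an HA-tagged protein recovered with an HA antibody) was profiled in a line that stably expresses it, and TRIM28 was profiled with its own antibody, each with ethanol or with the synthetic androgen R1881 at 10 nM for 16 h after 3 days in 5% charcoal-stripped serum. For the TRIM28 samples the labels do not name HA-TRIM24 cells, whereas the study's text names them for both proteins, so whether the tagged protein was present cannot be told apart here. With 1 sample per condition no difference between conditions could be tested, and all intervals given below cover counting error only.

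Cells entering mitosis induce a large, coordinated set of genes: kinases that drive entry and build the spindle, motors and kinetochore proteins that move chromosomes, and the machinery that degrades cyclins at exit. Their promoters are known for a CHR element, often beside CCAAT boxes, through which the DREAM complex represses them in resting cells and B-MYB and FOXM1 activate them later, while genes of DNA replication are known for E2F elements. TRIM24 is a chromatin reader and coregulator of nuclear receptors, and TRIM28 (KAP1) is a corepressor brought to DNA by KRAB zinc finger proteins. Androgen supports the proliferation of LNCaP cells.

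The promoters of these genes carried the letters of a CHR element far more often than promoters at large. TTTGAA or TTCGAA, read on both strands, occurred within 200 bp of the canonical transcription start site (TSS) in 34 of 48 genes (70.8%), against 13.9% of 19881 protein-coding genes searched. CCAAT was found in 39 (81.3%) against 38.3%, and TTTGGCGC, TTTCGCGC or TTTCCCGC, the E2F words, in 7 (14.6%) against 4.16%. The windows below are shown because these promoters carry the sites described in the following paragraphs, and the last pair are replication genes with an E2F word in place of a CHR word. Each is 30 bases of GRCh37 written 5′ to 3′ on the strand of the gene, with the matched word in capitals (TTCAAA is TTTGAA on the opposite strand).
PLK1, plus strand of chr16:23690169-23690198: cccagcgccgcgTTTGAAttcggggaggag
AURKA, minus strand of chr20:54967257-54967286: aaaagaagaaccTTTGAAttctaacggctg
KIF11, plus strand of chr10:94352847-94352876: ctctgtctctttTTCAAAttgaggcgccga
NUF2, plus strand of chr1:163291748-163291777: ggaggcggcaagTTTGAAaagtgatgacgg
CENPA, plus strand of chr2:27008894-27008923: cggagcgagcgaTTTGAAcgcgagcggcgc
BIRC5, plus strand of chr17:76210345-76210374: ttaaccgccagaTTTGAAtcgcgggacccg
PRC1, minus strand of chr15:91537768-91537797: cccgtggcgcggTTTGAAattttgcggggc
ECT2, plus strand of chr3:172468538-172468567: agcagcttagttTTTGAAtcggttgtggcg
AURKB, minus strand of chr17:8113915-8113944: cggggcgggagaTTTGAAaagtccttggcc
TPX2, plus strand of chr20:30327061-30327090: aggctgcctgggTTCAAAatttcaacgata
MCM2, plus strand of chr3:127317245-127317274: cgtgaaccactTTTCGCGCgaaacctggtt
MCM7, minus strand of chr7:99699011-99699040: ggggggcgacgTTTCGCGCcaatttcggtt
Among these 12 genes the word began between -39 bp (AURKB) and 34 bp (ECT2) from the canonical TSS, negative values being upstream. These are matches of letters in a window, and no factor is inferred from them.

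A binding site was assigned to a gene's promoter when its centre lay within 2 kb of any annotated TSS of that gene. Site strength is the deposited normalized tag count, that is, sequence tags in the site scaled to a library of 10000000 tags. The HA-TRIM24 lists held 5232 sites under ethanol and 9363 under R1881, and the TRIM28 lists 58201 and 34574. Total tags were 11606880, 12884097, 25145171 and 14231181 in the same order, and 1.36, 1.73, 4.95 and 3.8% of them lay in sites. The authors' caller set a tag threshold of 9, 9, 12 and 9, equal to 7.75, 6.99, 4.77 and 6.32 normalized tags. The lowest caller score in each list equalled that threshold, but the lowest normalized tags were 6, 5.4, 4 and 5.6. The TRIM28 ethanol list thus reaches weaker sites than the others. Among 4 androgen-responsive genes read as a check of the ligand labels, FKBP5 had HA-TRIM24 sites with R1881 alone (11.6 at a TSS and 21.7 in the gene body), KLK2 had promoter sites with ethanol (12.1) and R1881 (13.2), TMPRSS2 had a gene body site with R1881 alone (8.5) and KLK3 had none within 2 kb.

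HA-TRIM24 was listed at the promoters of few of the cell cycle genes without androgen and at more of them with it. With ethanol 4 of 48 genes (8.33%) had a promoter site, against 10.6% of all protein-coding genes. With R1881 12 of 48 (25%) had one, against 18.4% of all genes. When each list was limited to its 5232 strongest sites, the counts were 4 and 5. TRIM28 was listed at 38 of 48 promoters (79.2%) with ethanol, against 56.3% of all genes, and at 18 of 48 (37.5%) with R1881, against 37.4%. The R1881 share of TRIM28 lay next to the share of all genes, and the ethanol share lay above it in the one library that was sequenced most deeply. The grid of site strengths shows every gene in every sample.

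**Figure D1:**
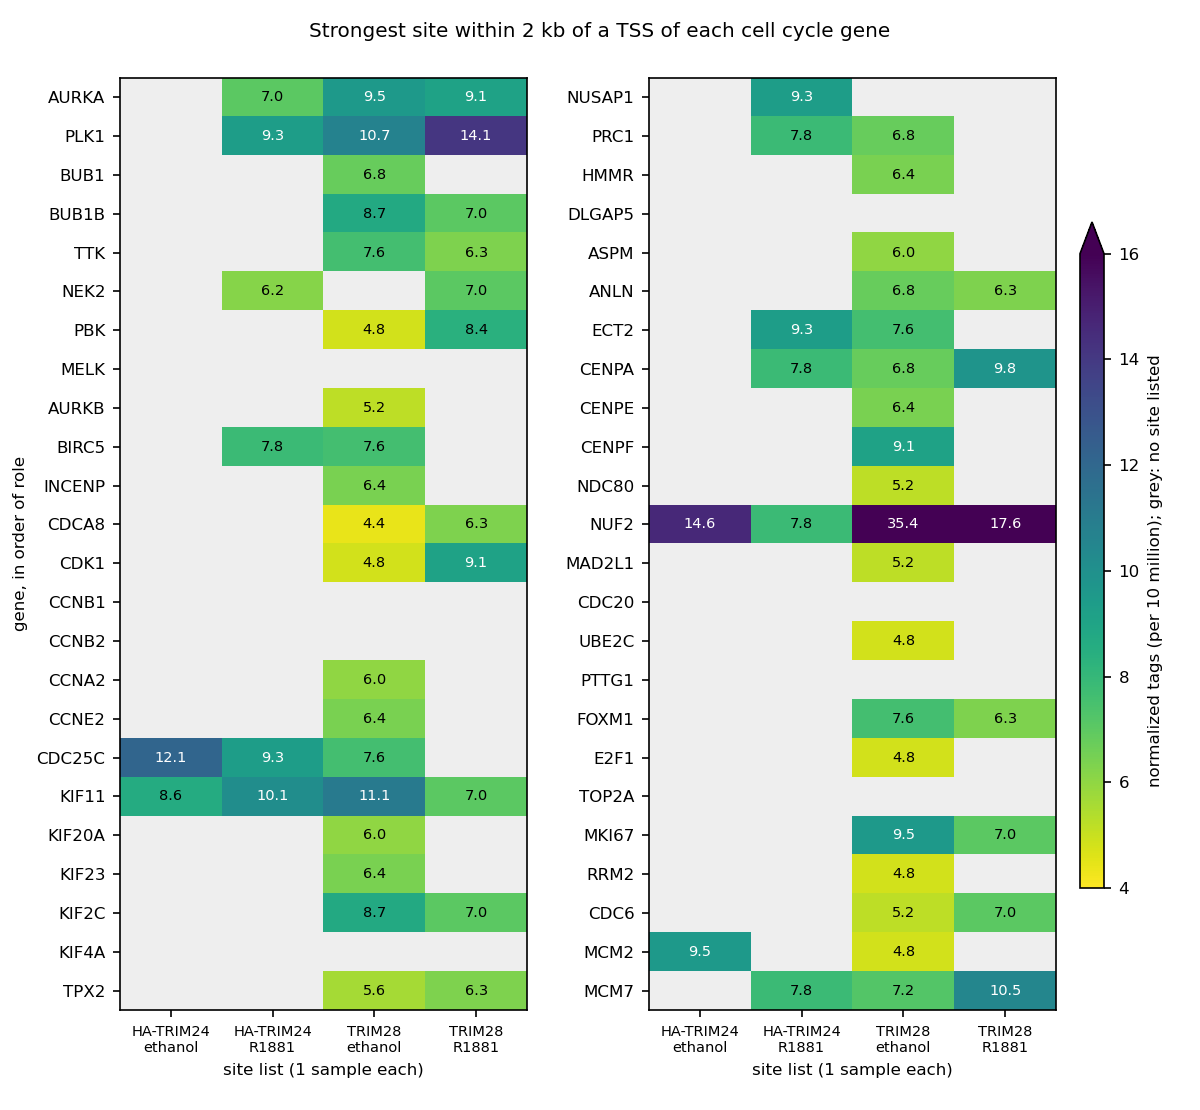
Normalized tags (per 10000000) of the strongest site within 2 kb of a TSS of each of the 48 genes, with genes in rows by role and the 4 samples in columns (1 sample each). Grey cells have no listed site. KIF11 and NUF2 are filled in all 4 columns, and the TRIM28 ethanol column holds 38 filled cells, many of them between 4.4 and 6.8.

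With R1881 the mitotic kinases and the spindle and cytokinesis genes, the largest roles, each had 3 of 8 genes (37.5%) with an HA-TRIM24 promoter site. The kinetochore and centromere genes had 2 of 6 (33.3%), and 18.4% of all genes had one. Among the 8 kinase genes, HA-TRIM24 sites stood at 0 promoters with ethanol (against 10.6% of all genes) and at 3 with R1881. TRIM28 sites stood at 6 (75%) with either ligand, against 56.3% of all genes with ethanol and 37.4% with R1881. PLK1, the polo-like kinase of mitotic entry and cytokinesis, had no HA-TRIM24 site with ethanol, 9.3 normalized tags with R1881, and TRIM28 sites of 10.7 with ethanol and 14.1 with R1881. All 3 sites overlapped one another upstream of the canonical TSS, inside a longer annotated transcript of PLK1, the HA-TRIM24 site at chr16:23690004-23690160, -108 bp from the nearest TSS. AURKA, the Aurora kinase of centrosomes and spindle assembly, had no HA-TRIM24 site with ethanol, 7.0 with R1881, and TRIM28 sites of 9.5 and 9.1. The AURKA sites stood in the interval shared with CSTF1, and the HA-TRIM24 site at chr20:54967609-54967765 was centred 14 bp from the CSTF1 TSS and -294 bp from that of AURKA. NEK2, a kinase of centrosome separation, differed from PLK1 and AURKA in having R1881 sites alone, 6.2 for HA-TRIM24 in the first exon (5′ UTR) and 7.0 for TRIM28.

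The checkpoint kinases had TRIM28 sites without HA-TRIM24. BUB1B, which restrains the anaphase-promoting complex, had TRIM28 sites of 8.7 with ethanol and 7.0 with R1881, but the R1881 site lay at an internal TSS in intron 20, 175 bp from the start of PAK6. TTK, which recruits checkpoint proteins to kinetochores, had 7.6 and 6.3, and BUB1 had 6.8 with ethanol alone. PBK, a mitotic kinase that the study assayed as a TRIM24 target, had TRIM28 sites at its TSS in both ligands (4.8 and 8.4, 12 tags each), and its nearest HA-TRIM24 site was 347 kb away with ethanol and 234 kb away with R1881. In the study, ChIP followed by qPCR at several known TRIM24 targets found less HA-TRIM24 after TRIM28 knockdown. A site missing from these lists does not show that HA-TRIM24 was absent. MELK had no promoter site in any of the 4 lists.

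The chromosomal passenger genes encode the Aurora B complex, which corrects wrong attachments of chromosomes to the spindle and later directs cytokinesis. All 4 had a TRIM28 promoter site with ethanol (100%, against 56.3% of all genes) and 1 had one with R1881 (25%, against 37.4%). An HA-TRIM24 site was listed at 1, with R1881 (25%, against 18.4%). AURKB, its kinase and another of the assayed targets, had a single promoter site, for TRIM28 with ethanol (5.2, 13 tags, centred -310 bp from the TSS). In each of the other 3 lists the nearest site to AURKB was 10.3 kb away. BIRC5 (survivin, the inhibitor-of-apoptosis-family subunit) had no HA-TRIM24 site with ethanol, 7.8 with R1881 at -10 bp, and TRIM28 at 7.6 with ethanol alone. INCENP, the scaffold, had TRIM28 at 6.4 with ethanol alone, and CDCA8 (borealin) had TRIM28 at 4.4 and 6.3, nearer to the start of C1orf109 than to its own.

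Of the 6 genes of cyclins and their partners, 1 (16.7%) had an HA-TRIM24 promoter site in each ligand. The shares of all genes were 10.6% with ethanol and 18.4% with R1881. TRIM28 had a site at 4 (66.7%, against 56.3%) with ethanol and at 1 (16.7%, against 37.4%) with R1881. CCNB1 and CCNB2, the B-type cyclins that activate CDK1 at mitotic entry, had no promoter site in any list, and CCNA2 and CCNE2 had TRIM28 sites of 6.0 and 6.4 with ethanol alone. CDK1 itself had TRIM28 sites of 4.8 with ethanol and 9.1 with R1881, and no HA-TRIM24 site within 42.9 kb in either ligand. CDC25C, the phosphatase that activates CDK1, had HA-TRIM24 sites of 12.1 with ethanol and 9.3 with R1881 and TRIM28 at 7.6 with ethanol. These CDC25C sites all stood at an alternative TSS beside FAM53C (the HA-TRIM24 ethanol site at chr5:137673750-137673904 was 123 bp from the FAM53C start and -6334 bp from the canonical CDC25C TSS), and none lay within 2 kb of the canonical start.

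Of the 5 kinesin genes, 1 (20%) had HA-TRIM24, against 10.6% of all genes with ethanol and 18.4% with R1881. In both ligands this was KIF11, the motor that pushes spindle poles apart. Its strongest promoter sites had 8.6 normalized tags for HA-TRIM24 with ethanol, 10.1 under R1881, and for TRIM28 11.1 and 7.0. The strongest of these 4 in each list lay at an upstream alternative TSS, between -1480 and -1242 bp from the canonical one. A further HA-TRIM24 site with R1881 (7.0, chr10:94352654-94352810) stood at -155 bp of the canonical TSS, and another (9.3) was 8 bp from the start of IDE, where a long KIF11 transcript also begins. KIF2C, a microtubule depolymerase, had TRIM28 at 8.7 and 7.0, KIF20A and KIF23, the kinesins of cytokinesis, had 6.0 and 6.4 with ethanol alone, and KIF4A, a chromosome-bound motor, had none.

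Among the 8 spindle and cytokinesis genes, HA-TRIM24 sites stood at 0 promoters with ethanol (against 10.6% of all genes) and 3 with R1881. TRIM28 sites stood at 6 (75%, against 56.3%) with ethanol and 2 (25%, against 37.4%) with R1881. NUSAP1, a microtubule-bundling protein, had a single site, HA-TRIM24 with R1881 at 9.3, centred 189 bp from the start of OIP5 and -396 bp from its own. PRC1, which cross-links the central spindle, had HA-TRIM24 with R1881 at 7.8 in its first exon (5′ UTR) and TRIM28 with ethanol at 6.8. ECT2, the exchange factor that activates RhoA for the contractile ring, had HA-TRIM24 with R1881 at 9.3 and TRIM28 with ethanol at 7.6. These 3 genes had no TRIM28 promoter site with R1881, although HA-TRIM24 was listed there under that ligand. TPX2, the activator of Aurora A and the third assayed target, had TRIM28 at 5.6 with ethanol and 6.3 with R1881, and its nearest HA-TRIM24 site was 166 kb away with ethanol and 75.1 kb away with R1881. ASPM, HMMR and ANLN had TRIM28 with ethanol at 6.0, 6.4 and 6.8, ANLN also with R1881 at 6.3, and DLGAP5 had no site.

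The kinetochore and centromere genes held the strongest site of the whole list. NUF2, a subunit of the NDC80 complex that binds microtubules, had promoter sites of 14.6 for HA-TRIM24 with ethanol, 7.8 under R1881, and for TRIM28 35.4 and 17.6. For both proteins the ethanol value was the higher, and the TRIM28 ethanol site rested on 89 tags (95% interval 28.4 to 43.6 normalized tags, exact Poisson). These sites overlapped one another at chr1:163291519-163291683, within 50 bp of the start of RGS5, which is divergent from NUF2, and -143 to -113 bp from the canonical NUF2 TSS for TRIM28. CENPA, the centromeric histone H3 variant, had no HA-TRIM24 site with ethanol, 7.8 with R1881, and TRIM28 at 6.8 and 9.8. The stronger CENPA site with R1881 was 67 bp from the start of SLC35F6, at which a long CENPA transcript begins, whereas the TRIM28 site beside the canonical start had 6.3. CENPF and CENPE, which tether kinetochores to microtubules, NDC80, the partner of NUF2, and MAD2L1, a checkpoint protein, had TRIM28 promoter sites with ethanol alone (9.1, 6.4, 5.2 and 5.2).

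Of the remaining roles, DNA replication alone had HA-TRIM24 promoter sites, at 1 of 4 genes (25%) in each ligand. The shares of all genes were 10.6% with ethanol and 18.4% with R1881. Of the 3 genes of cyclin destruction, UBE2C, the ubiquitin-conjugating enzyme of the anaphase-promoting complex, had TRIM28 at 4.8 with ethanol, while CDC20, an activator of that complex, and PTTG1 (securin) had no promoter site in any list. FOXM1, the activator of late cell cycle genes, had TRIM28 at 7.6 with ethanol and 6.3 with R1881 beside the start of RHNO1, and E2F1 had 4.8 with ethanol alone. MKI67, the proliferation antigen that coats mitotic chromosomes, had TRIM28 at 9.5 and 7.0, both in coding exon 13 beside an internal TSS and at least 23358 bp inside the gene, and TOP2A, the topoisomerase that untangles sister chromatids, had none. MCM7 and MCM2, subunits of the replicative helicase, differed in their HA-TRIM24 sites: MCM7 had 7.8 with R1881 alone, and MCM2 had 9.5 with ethanol alone, 155 bp from the start of TPRA1. TRIM28 at MCM7 had 7.2 with ethanol and 10.5 with R1881 in intron 1, TRIM28 at MCM2 had 4.8 with ethanol alone, and CDC6 and RRM2 had 5.2 and 4.8 with ethanol, CDC6 also 7.0 with R1881.

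Both proteins met at these promoters about as often as at the promoters of all genes. With R1881, 7 of 48 genes (14.6%) had promoter sites of HA-TRIM24 and TRIM28 (AURKA, PLK1, NEK2, KIF11, CENPA, NUF2 and MCM7), against 13.5% of all genes. With ethanol 4 had both (CDC25C, KIF11, NUF2 and MCM2; 8.33%), against 10.1%. Sharing a promoter did not always mean sharing a site: of the 14 HA-TRIM24 promoter sites in 12 genes with R1881, 6 overlapped a TRIM28 site, against 44.2% of 3462 HA-TRIM24 promoter sites of all genes. The closest pairs were at MCM7, with centres 6 bp apart, and PLK1, 9 bp apart, while none of the 3 KIF11 sites overlapped. With ethanol 3 of 4 HA-TRIM24 sites overlapped one of TRIM28, against 69.1% of 1875. KIF11 and NUF2 had promoter sites in all 4 lists, 2 of 48 genes (4.17%) against 4.9% of all genes.

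In the comparison of ligands, HA-TRIM24 had a promoter site in both at 3 genes (CDC25C, KIF11 and NUF2; 5.86% of all genes had this pattern), with ethanol alone at 1 (MCM2; 4.73%) and with R1881 alone at 9 (18.8% of the list, against 12.5%). Those 9 were AURKA, PLK1, NEK2, BIRC5, NUSAP1, PRC1, ECT2, CENPA and MCM7, and in each the nearest ethanol site was more than 10 kb away. Of the 9 sites, 7 were at or above 7.75 normalized tags, the caller's tag threshold for the ethanol list, and 2 (AURKA and NEK2) were below it. Among all 2530 genes with an HA-TRIM24 promoter site with R1881 alone, 22.7% were below that level, a similar share. The ethanol list nevertheless held sites down to 6 normalized tags, so the threshold was not a strict floor. TRIM28 had the opposite balance: a promoter site in both ligands at 17 genes (35.4%, against 34.5%), with ethanol alone at 21 (43.8%, against 21.8%) and with R1881 alone at 1 (NEK2; 2.87% of all genes). Of the 21 with ethanol alone, 10 were below 6.32 normalized tags, the caller's tag threshold for the R1881 list, and 11 were at or above it. Among all genes with an ethanol-only TRIM28 site, 44.8% were below that level. It was not a strict floor either, as the R1881 list held sites down to 5.6.

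Where sites of the same protein overlapped between ligands, strengths could be set side by side. For HA-TRIM24 this held at NUF2 alone (17 tags with ethanol and 10 with R1881), with a log2 ratio of R1881 to ethanol of -0.92 (95% interval -2.21 to 0.29). For TRIM28 it held at 13 genes, with a median log2 ratio of -0.06, against 0.01 for 5303 genes, and 5 ratios lay above 0 and 8 below. The range ran from -1.01 at NUF2 to 0.93 at CENPA, at the SLC35F6 start. NUF2 was the only one whose counting interval excluded 0 (-1.71 to -0.36, from 89 and 25 tags), and this does not include the spread between cultures, which was not measured. The plot of ligand ratios gives all 13.

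**Figure D2:**
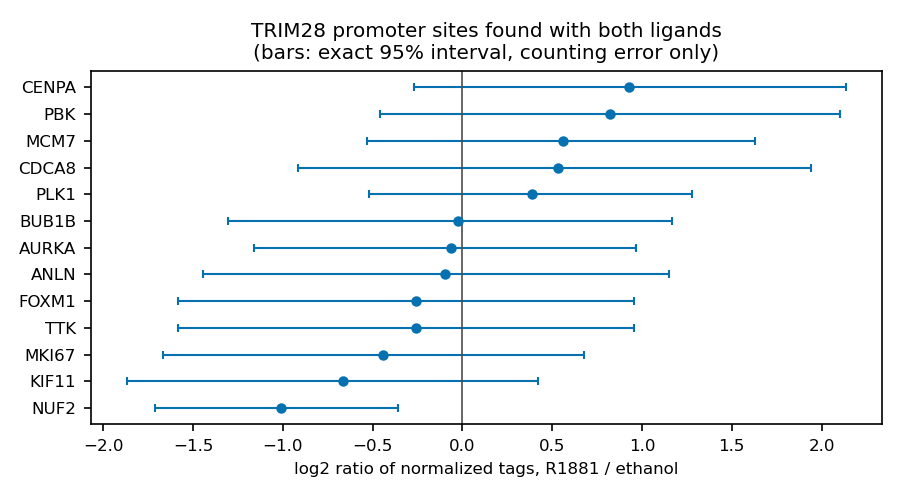
Log2 ratio of normalized TRIM28 tags, R1881 over ethanol, for the 13 cell cycle genes with overlapping promoter sites in both samples. Points are ratios and bars are exact 95% intervals for counting error in 1 sample per ligand. The bar of NUF2 lies wholly below 0 and the other 12 cross it.

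The excess of TRIM28 sites with ethanol was seen at minimums up to 6 normalized tags and not at 7 or 8. The median site of that list had 6.4. Counting only sites of at least 5 normalized tags, 31 of the cell cycle genes (64.6%) had one, against 52.6% of all genes. At 6 or more, 26 (54.2%) had one, against 44.9%. At 7 or more, 14 (29.2%) had one, against 31.2%, and at 8 or more, 8 (16.7%), against 23.2%. With R1881 the TRIM28 shares stayed close to those of all genes at each minimum (27.1% against 29.3% at 7, and 14.6% against 16.5% at 8). For HA-TRIM24 with R1881, 11 genes (22.9%, against 17.3%) had a site of at least 7, and 5 (10.4%, against 11.8%) had one of at least 8. At 10 or more 1 gene, KIF11, had one (2.08%, against 6.29%).

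**Figure D3:**
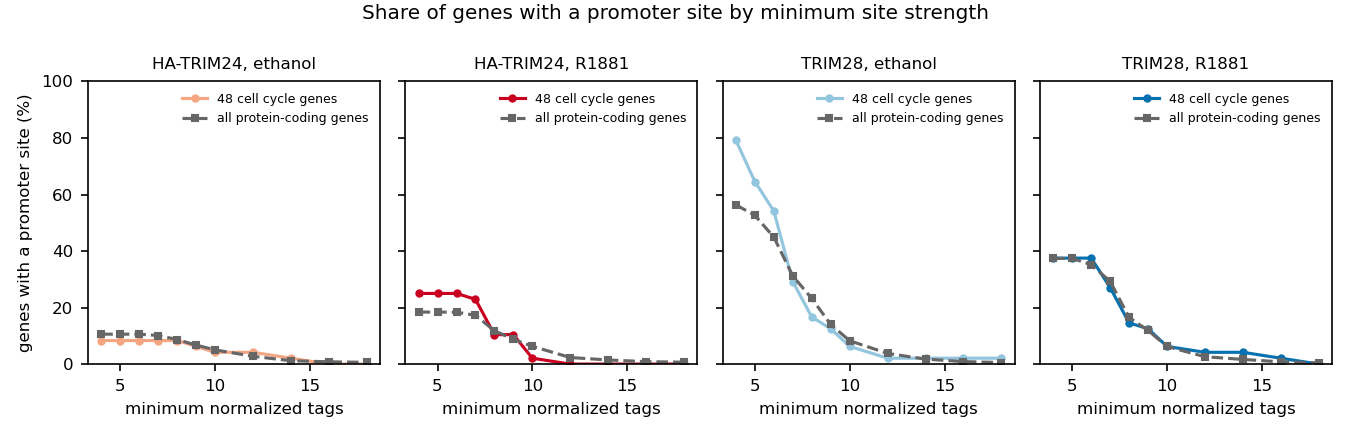
Share of genes with a promoter site (vertical, percent) as the minimum normalized tags of a site is raised (horizontal), for the 48 cell cycle genes (coloured circles) and all 20162 protein-coding genes (grey squares), 1 sample per panel. In the TRIM28 ethanol panel the coloured line starts at 79.2% against 56.3% and lies below the grey line at 7 and 8 normalized tags.

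The median strongest promoter site of the cell cycle genes was 10.8 normalized tags for HA-TRIM24 with ethanol (4 genes; 9.5 for all genes with a site), 7.8 with R1881 (8.5), 6.4 for TRIM28 with ethanol (7.2) and 7.0 with R1881 (7.7). The sites lay close to the start of transcription. In all 4 and all 12 genes with an HA-TRIM24 site the strongest one lay within 500 bp of a TSS, against 85.2 and 82.9% of all genes with a promoter site in those lists. For TRIM28 it was 36 of 38 (94.7%, against 78.2%) with ethanol and 17 of 18 (94.4%, against 74.7%) with R1881. The larger number of annotated TSSs in these genes (median 7 against 5) was not adjusted for. The strongest site was upstream of the nearest TSS in 3 of 4, 9 of 12, 28 of 38 and 11 of 18 genes in the order of the lists, or 75, 75, 73.7 and 61.1%, against 59.9, 53.6, 56 and 58.3% of all genes.

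**Figure D4:**
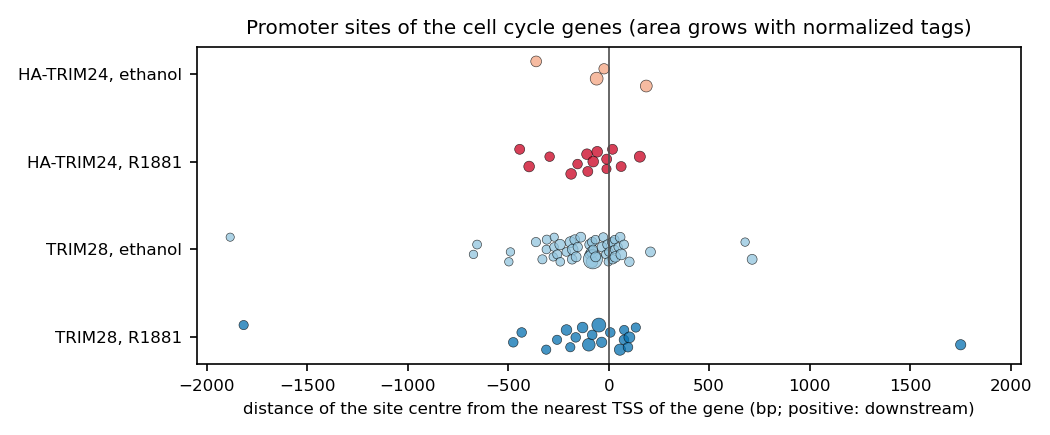
Distance in bp (horizontal, negative upstream) from the nearest TSS of the gene to the centre of each promoter site of the 48 cell cycle genes, in 4 rows by sample. Point area grows with normalized tags, and the vertical scatter within a row has no meaning. Most points stand within 500 bp of the TSS, and the largest is TRIM28 with ethanol at NUF2 (35.4).

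The shared or alternative starts named above limit what a promoter site says of a gene. At least 1 promoter site was nearer to the gene's own TSS than to that of any other protein-coding gene in 1 of 4 genes for HA-TRIM24 with ethanol (KIF11), 9 of 12 with R1881, 31 of 38 for TRIM28 with ethanol and 15 of 18 with R1881. The exceptions were CDC25C, MCM2 and NUF2 in the first list and AURKA, NUF2 and NUSAP1 in the second. For TRIM28 they were AURKA, CDCA8 and FOXM1 in both ligands and HMMR, MCM2, NDC80 and NUF2 with ethanol. A site between divergent genes cannot be assigned to either of them from these data.

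Sites inside the gene bodies, over 2 kb from every TSS of the gene, were fewer than among genes at large. HA-TRIM24 had them in 1 gene with ethanol (2.08%, against 4.71%) and 2 with R1881 (4.17%, against 9.33%), and TRIM28 in 5 with ethanol (10.4%, against 37.4%) and 6 with R1881 (12.5%, against 28.9%). The median gene length was 29.3 kb against 27.2 kb. The total length was 1805 kb for the 48 genes and 1.38062e+06 kb for all 20162 protein-coding genes. Similar medians do not show that lengths were matched, because they leave out the longest genes. The shares above were not adjusted for gene length. The cell cycle genes also had more annotated TSSs (median 7 against 5), and the 2 kb rule leaves less gene body where TSSs are many. How much of the difference this makes was not tested. Per 1000 kb of gene TRIM28 had 4.98 sites with ethanol and 4.43 with R1881, against 15.1 and 9.04 for all genes. NUF2 was again the strongest for HA-TRIM24, with 18.1 normalized tags under ethanol and 12.4 under R1881 at chr1:163260165-163260319. That region is -31502 bp from the canonical NUF2 TSS, inside a long annotated transcript of the gene, and TRIM28 had sites of 12.3 with ethanol and 6.3 with R1881 beside it. CENPA had the other HA-TRIM24 site (7.0 with R1881), between the SLC35F6 start and the canonical CENPA start, with TRIM28 beside it at 12.3 with ethanol and 7.7 with R1881. A second TRIM28 region there had 8.4 and 9.1.

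Within the canonical transcripts the gene body sites were all of TRIM28. CENPE had a TRIM28 site of 9.1 in intron 42 with R1881. MCM2 had 3 TRIM28 sites in intron 8 with ethanol (6.0, 6.0 and 5.6) and 1 with R1881 (7.0). KIF4A (intron 15) and NDC80 (intron 16) had TRIM28 sites of 5.2 with ethanol, and HMMR (intron 4) and ANLN (intron 1) had 6.3 with R1881.

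Genes with no promoter site varied in their distance to the nearest one. No promoter site in any list was found for 8 of 48 genes (16.7%, against 39.7% of all genes): MELK, CCNB1, CCNB2, KIF4A, DLGAP5, CDC20, PTTG1 and TOP2A. Within these 8, the nearest TRIM28 ethanol site was 2.85 kb away for PTTG1, 5.28 kb for CDC20, 5.45 kb for TOP2A and 12.6 to 69.6 kb for the other 5. Over all 48 genes the median distance from a TSS to the nearest site was 113 kb for HA-TRIM24 with ethanol and 49.5 kb with R1881, against 135 and 58.7 kb for all genes. For TRIM28 it was 0.171 kb with ethanol and 9.55 kb with R1881, against 0.582 and 7.70 kb. With R1881 the genes farthest from TRIM28 were MAD2L1 (258 kb), KIF4A (190.0 kb), CCNB2 (53.6 kb), CCNA2 (46.4 kb) and RRM2 (41.4 kb), and MAD2L1, CCNA2 and RRM2 had promoter sites with ethanol. The plot of nearest sites shows the distances falling into a group near the TSS and a group beyond 2 kb.

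**Figure D5:**
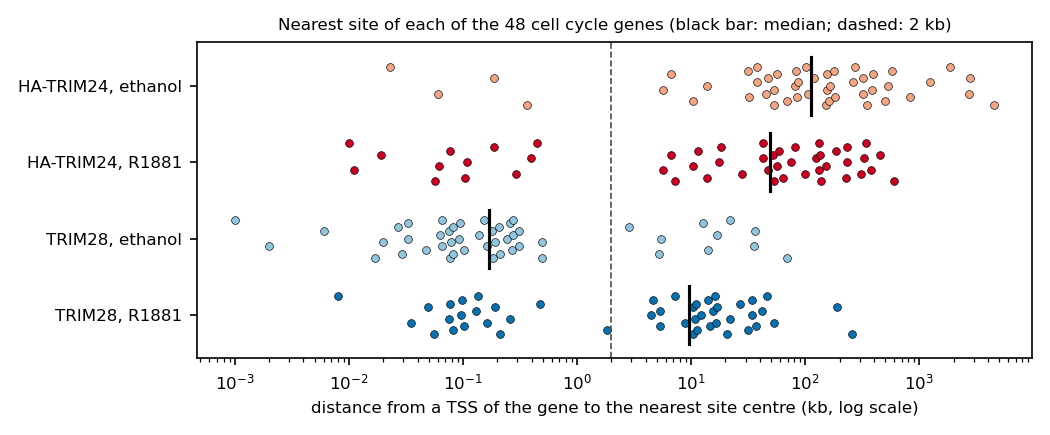
Distance in kb (horizontal, log scale) from a TSS of each of the 48 cell cycle genes to the centre of the nearest site in each of the 4 samples. The black bar is the median and the dashed line marks 2 kb. The TRIM28 ethanol median (0.171 kb) lies left of the line and the other 3 medians (9.55, 49.5 and 113 kb) right of it.

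The CHR letters occurred in genes with sites and in genes without. They were found in 10 of 12 genes with HA-TRIM24 and R1881 (83.3%) and 28 of 38 with TRIM28 and ethanol (73.7%). The counts were 14 of 18 with TRIM28 and R1881 (77.8%), and 5 of the 8 with no site (62.5%). Of all 48 genes 70.8% had them, and of all protein-coding genes searched 13.9%. The word lay inside the HA-TRIM24 R1881 site in 2 of 10 genes, BIRC5 and PRC1 of the windows above, and inside a TRIM28 site in 6 of 28 with ethanol and 1 of 14 with R1881 (PBK). The median gap from the word to the site centre was 227 bp for HA-TRIM24 with R1881, and for TRIM28 177 bp under ethanol and 328 bp under R1881.

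Other cell cycle genes were counted by the same rule, and the shares of all genes remain 56.3 and 37.4% for TRIM28 and 10.6 and 18.4% for HA-TRIM24, with ethanol and R1881. No difference between lists was tested. Of 40 other G2/M genes, 33 (82.5%) had a TRIM28 promoter site with ethanol and 19 (47.5%) with R1881, but 1 had HA-TRIM24 with ethanol (TACC3, a spindle protein) and 2 (5%) with R1881 (SKA1, a kinetochore protein, and TACC3). The CHR letters occurred in 34 of these 40 genes (85%), and in 2 of 40 other G1/S genes (5%). Of 40 other G1/S genes, 27 (67.5%) and 18 (45%) had TRIM28, and 3 and 5 (12.5%) had HA-TRIM24, the 5 with R1881 being GINS3, TYMS, CDC25A, EXO1 and DTL, genes of replication, nucleotide synthesis, entry into S phase and DNA repair.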

How the data were processed

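ChIP-seq sites were read from 4 deposited lists, 1 per sample. Per the labels and the study's methods, the authors aligned reads to hg19 with BWA 0.6.1 and called sites in each sample separately with HOMER 4.1 at a false discovery rate of 0.001, keeping sites at least 4.0-fold over the surrounding 10 kb. The command in the file headers names no input library, so regions that collect tags in any library were not subtracted. The deposited values used here are normalized tag counts, a coverage signal scaled by the authors to 10000000 tags, with the HOMER score and the fold ratio over the local region; the deposited p-value columns were not used. Normalized tags scaled back by the total of the header gave whole tags within 0.15 in 100% of the sites checked. Those were 4882, 8935, 57980 and 34327 sites in the order of the lists, with the strongest sites left out. The methods describe matching of library sizes, whereas the header totals differ, and the lists were used as deposited.

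Genes and TSSs came from GENCODE release 44 mapped to GRCh37, and coordinates are 1-based. A site counted at a promoter when its centre lay within 2 kb of any TSS of the gene, and in the gene body when inside the gene and farther than 2 kb from each TSS. Intervals are exact at 95% (Poisson for a level, conditional binomial for a ratio). Values were named for AURKB, PBK and TPX2, genes with an HA-TRIM24 site, the 5 strongest TRIM28 sites per ligand, sites in all lists, gene body sites and the 5 genes farthest from TRIM28 with R1881; the other genes were added after their values were seen. The members and the comparison lists were chosen with earlier results of these data known. A further list, of regulators, is not reported here. Assignment was tested on simulated data. Python 3.11.15, pandas 2.3.3, scipy 1.17.1 and pysam 0.24.0 were used.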

Additional observations from a re-analysis of the deposited data

Results flagged for a closer look

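The count of cell cycle genes with a promoter site moved in opposite directions with the ligand for the 2 proteins. For HA-TRIM24 it went from 4 with ethanol to 12 with R1881, a log2 ratio of counts of 1.58. It was 4 and 5 with equal numbers of the strongest sites per list, and 2 and 3 with the sites above each list's median rank in strength. For TRIM28 it went from 38 with ethanol to 18 with R1881, a log2 ratio of -1.08. With 1 sample behind each count, no test of the difference between the proteins could be made, and it is given as a description. The lists moved in the same directions over the genome (5232 to 9363 sites for HA-TRIM24 and 58201 to 34574 for TRIM28), and the TRIM28 ethanol library had 25145171 tags against 14231181 with R1881. The part of library depth in the TRIM28 count was not tested by subsampling; at the highest of the 4 caller thresholds, 7.75 normalized tags, the TRIM28 counts were 8 with ethanol and 7 with R1881.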

How the results depend on the processing

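Counts moved chiefly when weak sites were left out. With equal numbers of strongest sites (5232 per list), promoter counts were 5 for HA-TRIM24 with R1881, 2 and 2 for TRIM28 with ethanol and R1881, 1 and 2 for both proteins with R1881 and ethanol, and 1 for TRIM28 in both ligands; gene body counts were 1 for HA-TRIM24 with R1881 and 2 and 0 for TRIM28. With sites above each list's median rank in strength, promoter counts were 2 and 3 for HA-TRIM24, 20 and 7 for TRIM28, 0 and 2 for both proteins, and 1 and 5 in both ligands; gene body counts were 1 for HA-TRIM24 with R1881 and 2 and 2 for TRIM28. At the threshold of the shallowest library, chosen after seeing the data, promoter counts were 8 and 7 for TRIM28, 4 and 2 for both proteins and 3 for TRIM28 in both ligands; gene body counts were 1 for HA-TRIM24 with R1881 and 2 and 2 for TRIM28. R1881 minus ethanol for HA-TRIM24 was 8, and 1 with equal numbers or above the median. For TRIM28 it was -20, and 0 with equal numbers, -8 at the common minimum, -13 above the median and -1 at the shallowest threshold. The TRIM28 ethanol share minus that of all genes was 22.8 percentage points, 9.24 at the common minimum, 3.18 above the median, and reversed to -1.91 with equal numbers and -6.56 at the shallowest threshold; these settings remove weak sites by construction. Requiring the gene's own TSS to be nearest left 1 gene for HA-TRIM24 with ethanol, 1 for both proteins with ethanol and 1 for HA-TRIM24 in both ligands. Gene body counts for TRIM28 with ethanol were 8 with protein-coding TSSs, 3 at the common minimum and 10 with the canonical TSS alone (chosen after seeing the data), which also gave 2 for HA-TRIM24 with ethanol; fewer TSSs leave more sites counted as gene body. For the other lists the share minus that of all genes ranged over the settings from -6.69 to 0.14 points for HA-TRIM24 with ethanol (-2.26 as reported), from -1.50 to 7.89 for HA-TRIM24 with R1881 (6.59) and from -4.93 to 2.79 for TRIM28 with R1881 (0.10), so its sign was not stable in any of the 3. The other counts stayed within 1.5 times. No paired analysis was possible because each condition has 1 sample. The caller's tag threshold was 9 to 12, and the lowest listed site had 6 and 5.4 normalized tags for HA-TRIM24 with ethanol and R1881. For TRIM28 it had 4 and 5.6. Binding below that was not detectable.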
